A study of Mus musculus with 12 samples.

Results

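The variation between 6 litters of newborn mice was examined in 12 whole brains, with 2 littermate females from each litter, 1 wildtype and 1 KIS-ko. All 12 arrays of the series entered, and the members of the comparison were the 17550 genes of the deposited table, all of which were tested. KIS is the kinase encoded by Uhmk1. The wildtype animals were KIS +/+ and the KIS-ko animals lacked the gene, all were of the C57BL6/N background after repeated backcrossing, none received a treatment, and both genotypes came from the same dams' litters. Total RNA of each powdered brain was hybridized to 1 Affymetrix Mouse Exon 1.0 ST array, on which short probes in the same exon are summarized as a probeset. A gene's level is given below on a log2 scale, as the average of log2(signal + 16) over the gene's probesets, with every array centred on its median gene. A difference of 1 on this scale is a doubling, somewhat understated in dim genes.

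Littermates share a mother, a birth and, as a rule, the hours of collection, so that anything that acts on a whole litter reaches both brains. Newborn brain makes its own cholesterol, because the blood-brain barrier keeps out the lipoproteins of the blood, and the enzymes of this pathway are switched on together by the SREBP2 transcription factor when sterols run low. Clock genes form feedback loops in which CLOCK and BMAL1 (Arntl) activate Per, Cry, Nr1d and the PAR bZIP genes Dbp, Tef and Hlf through E-boxes. Hox genes mark the hindbrain and the spinal cord along the body axis, and are silent in the forebrain. Interferon-response genes are a set of antiviral genes induced by type I interferon through STAT and IRF factors. None of the labels gives the hour of birth or collection, litter size or feeding, and whether the brains of a litter were dissected, extracted or hybridized together is not given in the sources used here. Litter and such a batch cannot be told apart.

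Across all 6 litters, no gene passed the F test of limma over litters with genotype in the fit (0 of 17550 at an adjusted p of 0.05, which is 0%, with a lowest adjusted p of 0.20), while 2421 genes (13.8%) had an unadjusted p under 0.05. The count changed with the setting. It was 128 of 11436 genes when probesets under the 95th percentile of the intron controls were left out, and 487 when the variance was moderated with a trend and robustly, and 0 with an ordinary F test. In 121 of the 128 the litter furthest from the others was litter 5. Single probesets gave the same count of 0 of 221417 (0%), with 18816 at an unadjusted p under 0.05. The genotype, tested in the same fit with the litter as block, gave 2 genes (0.0114%), Uhmk1 and Fcgr3, and 1090 genes at an unadjusted p under 0.05.

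Where litters differed, the difference lay mostly in litter 5. In the contrast of each litter with the mean of the other 5, 967 genes passed in litter 5, 482 higher (2.75%) and 485 lower (2.76%). In litter 4, 1 gene passed (0.0057%), and 0 passed in litters 1, 2, 3 and 6, where 1540, 668, 766 and 1073 genes had an unadjusted p under 0.05. Both brains of litter 5 lay above all other 10 brains in 2361 genes (13.5%) and below them in 1208 (6.88%). In litter 4 the same was true of 450 genes above (2.56%) and 361 below (2.06%), in litter 1 of 191 (1.09%) and 429, and in the other litters of 104 to 220 above and 134 to 240 below. Among the 2421 genes with an unadjusted p under 0.05 over litters, litter 5 was the furthest from the others in 1682, or 69.5%. The median size of the difference in the 967 genes was 0.292 on the log2 scale, and 53 of them differed by more than 0.5. With 2 brains in the litter, the count rests on few arrays. It was 0 without either brain of litter 5, and also 0 without the KIS-ko brain of litter 1 or either brain of litter 3. Without either brain of litter 2 it was 8 or 9, without the wildtype brain of litter 6 it was 13, of litter 1 it was 135. Without the KIS-ko brain of litter 4 it was 590, of litter 6 it was 443, and without the wildtype brain of litter 4 it was 1257. It was 0 without the whole of litter 1, 3 or 6 and 452 without litter 2. With the median over probesets in place of the mean it was 16, with a variance trend and robust moderation 2403.

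**Figure D1:**
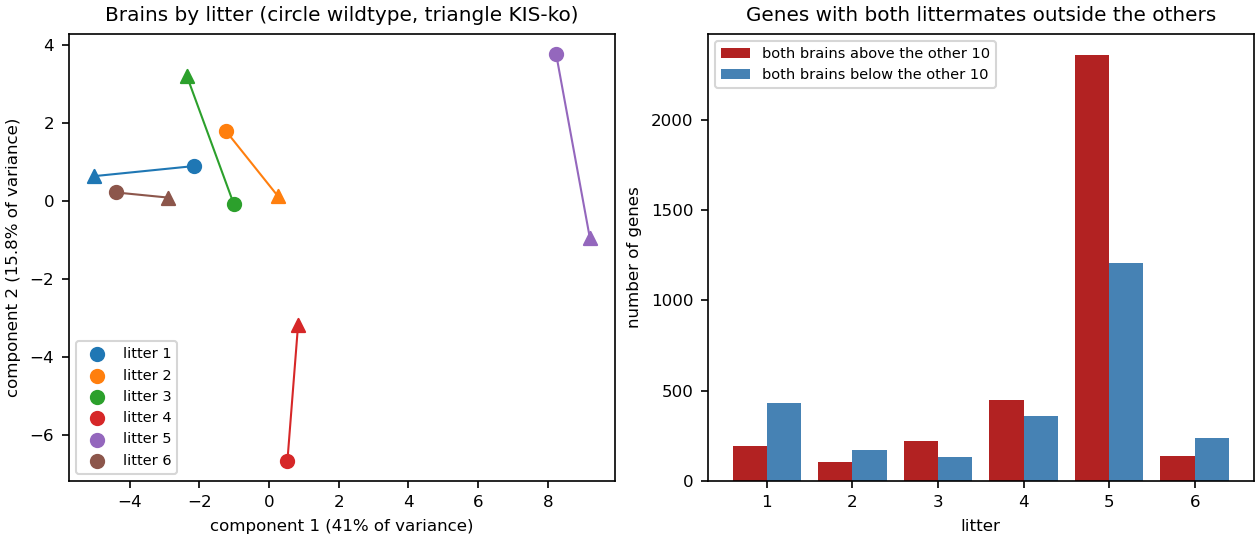
Left, each of the 12 brains by the first and second principal components of the 5756 genes above the 95th percentile of the intron controls, after removal of the genotype means, with a line joining littermates. Right, the number of genes in which both brains of a litter lay above or below the other 10. The litter 5 brains stand alone at the right of the first component, at 8.24 and 9.21, and litter 4 lies lowest on the second.

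Littermates were alike mainly in well-detected genes. Over these 5756 genes, each brain was taken minus the mean of its genotype, and the littermates' correlation across genes was 0.503, -0.0567, 0.274, 0.246, 0.653 and 0.370 for litters 1 to 6 in turn. Genes are not independent replicates, so the value itself was tested over samples. The mean of the 6 was 0.332, against -0.0545 between brains of different litters, and 6 of the 720 possible pairings of wildtype with KIS-ko brains gave at least this mean (exact permutation test, one-sided, p = 0.0083). Single pairs from different litters ranged from -0.624 to 0.442. The littermate was the most alike brain of the other genotype for 3 of the 6 wildtype and 5 of the 6 KIS-ko brains. The wildtype brain of litter 3 was more like the KIS-ko brain of litter 2 (0.442) than like its littermate (0.274). The wildtype brain of litter 6 was more like the KIS-ko brain of litter 1 (0.442) than like its littermate (0.370). In litter 2 the littermates were no more alike than the mean of unrelated brains. The labels number the mice of each other litter consecutively but not those of litter 2, and whether its litter label is right was not tested. Over all 17550 genes the mean was 0.0905 (exact p = 0.15), and 0.0077 without litter 5. The share of variance within a gene that went with the litter (intraclass correlation) had a median of 0.202 over all genes and 0.395 in the well-detected ones.

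The median signal of the litter 5 arrays was 491 in wildtype and 478 in KIS-ko, against 485 to 546 in the others, and their intron controls had medians of 107 and 97.9 against 103 to 125. The log2 level at the 3' end of genes minus that at the 5' end was -0.242 and -0.282, against -0.254 to -0.196. The share of probesets above the 95th percentile of the intron controls was 40.1% and 39.6%, against 39.9% to 42.9%. Among these 4 measures the lowest exact permutation p for littermates being alike was 0.085 (adjusted 0.34). The KIS-ko brain of litter 5 was the lowest of the 12 in all 4, and the part of these measures in the litter 5 differences was not tested.

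Dim genes as a body read higher in both litter 5 brains, and in single brains of other litters too. Olfactory receptors, nearly all near the background, had a mean deviation from the 12 brains of 0.109 and 0.105 in litter 5, 0.161 in the KIS-ko brain of litter 6 and 0.113 in that of litter 2. The median difference from the other litters was 0.125 to 0.142 in the 3 dimmest brightness groups of genes, 0.0158 in the 6th of 10 equal groups and 0.0642 in the brightest. Over all genes it was 0.072, and without the centring of arrays -0.035. The split of the 967 genes followed this scaling. Without centring 33 passed higher and 708 lower, and after another quantile normalization 317 higher and 698 lower. List medians for litter 5 are therefore set beside the median of all genes or given relative to it.

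**Figure D2:**
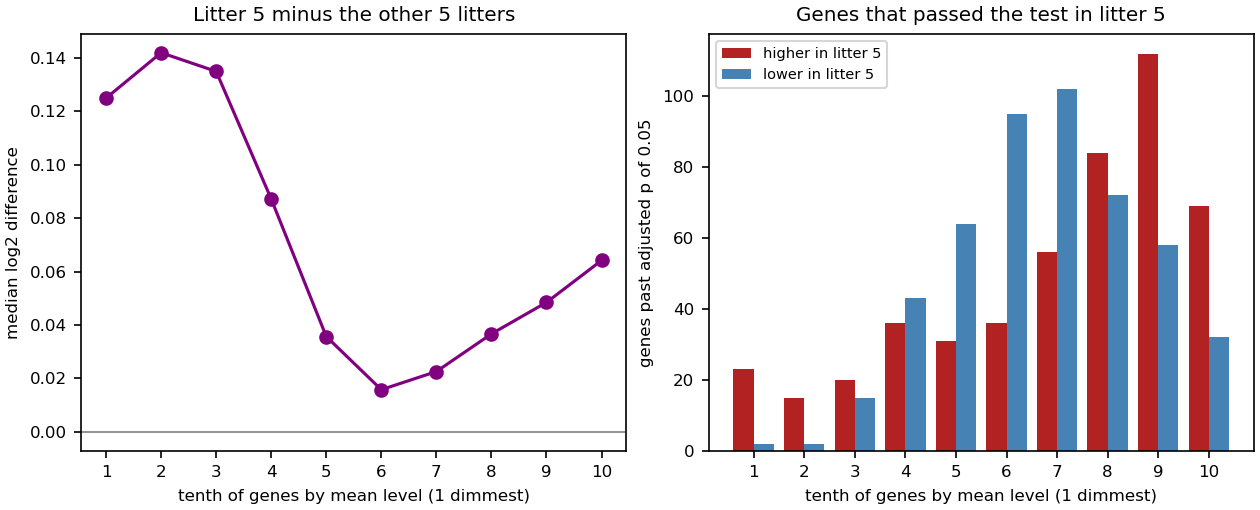
Left, the median log2 difference of litter 5 from the mean of the other 5 litters in each of 10 equal groups of genes by mean level, from the dimmest to the brightest. Right, the number of genes in each group that passed an adjusted p of 0.05 in this contrast. Genes that passed as lower are most numerous in the 7th group (102) and those that passed as higher in the 9th (112).

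The clearest group was cholesterol synthesis. Of 23 genes measured, 12 fell in litter 5 and 0 rose (background 2.76% lower), 15 had an unadjusted p under 0.05 over litters (background 13.8%), and in 15 both litter 5 brains lay below all others (background 6.88%). The median of the 23 was -0.32, or -0.39 relative to all genes. The 12 became 0 without either litter 5 brain, the KIS-ko brain of litter 1 or either brain of litters 2 or 3, 1 without the wildtype brain of litter 6, 5 without that of litter 1 and 2 with the median over probesets, while the count at an unadjusted p under 0.05 was 16 (background 8.89%), and 12 to 19 without any single brain. Sc4mol, the sterol C4-methyl oxidase now named Msmo1, was at 9.31 in the wildtype and 9.21 in the KIS-ko brain of litter 5, and from 9.62 to 9.90 in the other 10, a level 1.46-fold lower (difference -0.548, SE 0.054, limma adjusted p = 0.017). Both litter 5 brains lay under every other brain. Sqle, squalene epoxidase, an oxygen-dependent control point of the pathway, was at 9.90 and 9.97 against 10.34 to 10.80, 1.49-fold lower (SE 0.075 on the log2 scale, limma adjusted p = 0.024). Hmgcs1, which makes HMG-CoA, was at 11.46 and 11.50 against 11.74 to 12.07, 1.34-fold lower (SE 0.058, limma adjusted p = 0.026). In none of these genes did the litter 5 brains overlap the rest.

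Enzymes all along the pathway were among those that fell. Mvd, which makes isopentenyl diphosphate, was 1.34-fold lower. Fdft1, squalene synthase, was 1.34-fold lower, with 11.05 and 11.02 in litter 5 and 11.25 to 11.64 elsewhere. Lss, which closes the sterol rings, was 1.28-fold lower. Cyp51, Nsdhl and Hsd17b7, which act with Sc4mol on the methylated sterols, were 1.29-fold, 1.25-fold and 1.38-fold lower. Dhcr7, the last reductase, was 1.30-fold lower. Hsd17b7 was the 1 gene of the 12 in which litter 5 overlapped the others, with 9.432 in the KIS-ko brain against a lowest value of 9.428 elsewhere. Idi1 was 1.61-fold lower, but its 6 probesets are placed by the table on chromosome 2 and 0 of them are marked as matching 1 place, while RefSeq has the gene on chromosome 13.

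Regulators of the pathway named here did not pass in litter 5. Srebf2, which encodes SREBP2, was at 10.85 and 10.87 in litter 5 and from 10.81 to 11.06 in the others (limma adjusted p = 0.43). Insig1, which retains SREBP in the endoplasmic reticulum, was at 9.95 and 9.92 against 9.88 to 10.42 (limma adjusted p = 0.13). At the other end was litter 1, where 22 of the 23 genes had a positive difference and 13 an unadjusted p under 0.05 (background 2.87% higher). Set against litters 2, 3, 4 and 6 alone, both litter 1 brains were above the others in 1 of 23 (background 1.64%).

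The second group was the circadian clock. Of 19 genes measured, 7 rose in litter 5 and 0 fell (background 2.75% higher), 11 had an unadjusted p under 0.05 over litters (background 13.8%), and in 16 both litter 5 brains lay above all others (background 13.5%). The list median was 0.25, or 0.17 relative to all genes, and 18 of the 19 had a positive difference, also without centring and after another quantile normalization. The count of 7 was 1 without centring, 0 with the median over probesets, 14 with a variance trend, and 0 without any one of 8 brains (both of litters 1, 2, 3 and 5) or the wildtype of litter 6, and 4 without the KIS-ko of litter 6. At an unadjusted p under 0.05 the count was 18 (background 18.8%), 12 to 17 without any single brain and 8 without centring. Nr1d1, which encodes the repressor REV-ERB alpha, was at 10.63 in the wildtype and 10.73 in the KIS-ko brain of litter 5, and from 10.09 to 10.50 in the others, 1.34-fold higher (SE 0.078, limma adjusted p = 0.034). Tef was at 9.52 and 9.57 against 8.997 to 9.24, 1.34-fold higher (SE 0.065, adjusted p = 0.027 by limma). Per2, a repressor of the loop, was at 9.74 and 9.55 against 9.05 to 9.51, 1.36-fold higher (SE 0.095, limma adjusted p = 0.043). All of these litter 5 values lay above the other 10 brains.

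Hlf, Nr1d2, Cry1 and Cry2 were the other 4 that rose, by 1.22-fold, 1.26-fold, 1.25-fold and 1.22-fold. Arntl, whose transcript runs opposite to that of Nr1d1 in tissues with a running clock, was at 9.58 and 9.55 in litter 5 and from 9.17 to 9.51 in the others, and Clock at 10.27 and 10.19 against 9.94 to 10.17, both above every other brain though neither passed (adjusted p = 0.066 and 0.073 by limma). Per1 was at 10.16 and 10.19 against 9.66 to 10.11 (adjusted p = 0.055) and Dbp at 9.20 and 9.32 against 8.94 to 9.18 (adjusted p = 0.096). Nfil3, which encodes the repressor that opposes the PAR bZIP factors, was the single member with a negative difference, with 8.80 and 8.88 inside the range of 8.77 to 9.05.

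**Figure D3:**
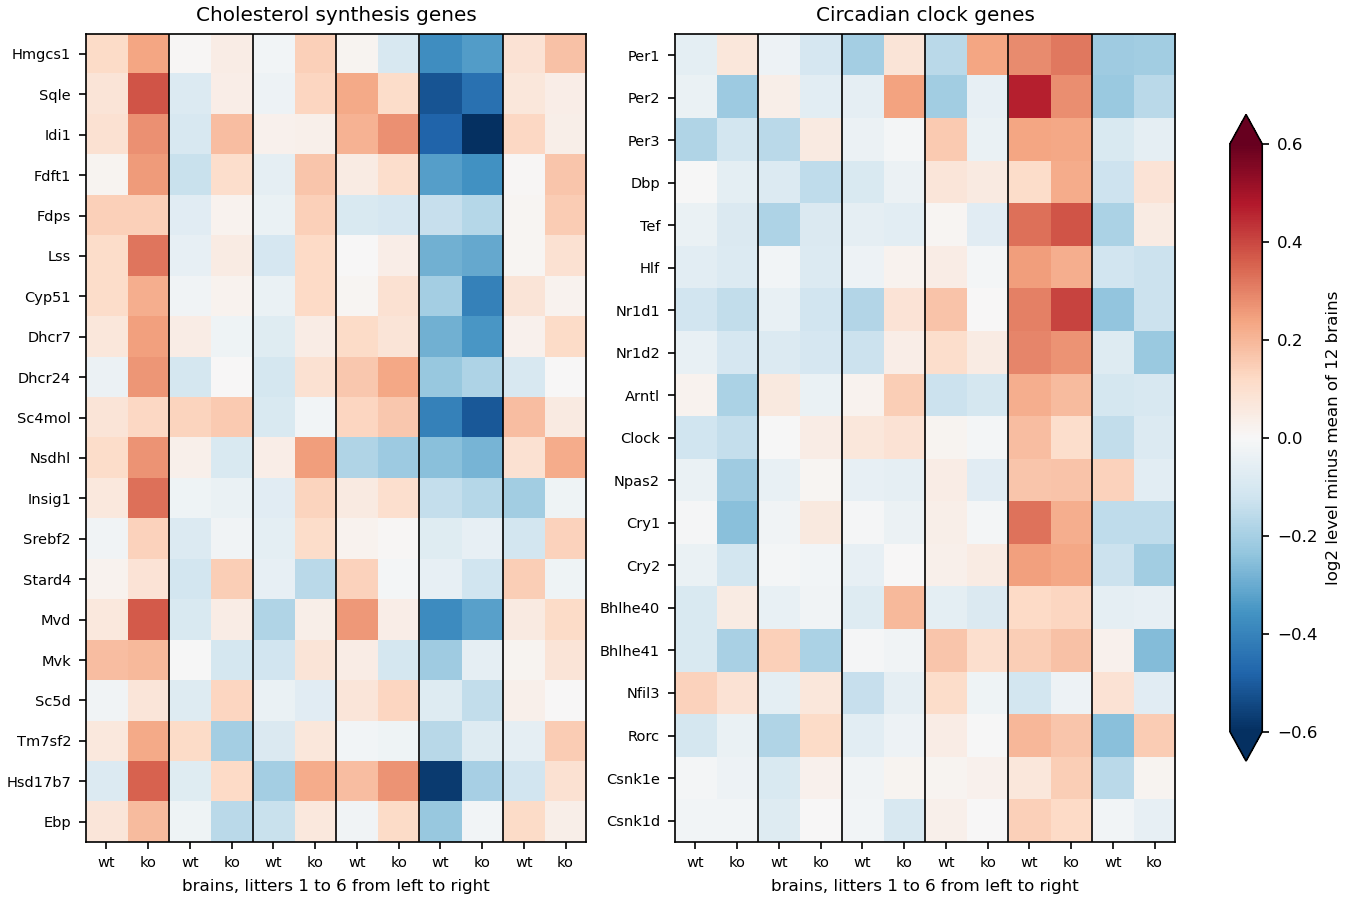
Each row is a gene and each column a brain, grouped in litters 1 to 6 from left to right with wildtype before KIS-ko. Colour gives the log2 level minus the mean of the 12 brains, from -0.6 (blue) to 0.6 (red). The pair of columns of litter 5 is blue in the cholesterol genes drawn, by its difference from the other litters, and red in 18 of the 19 clock genes.

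The promoters of 4 of these genes are shown to set the letters in front of genes that moved together side by side. Each is 250 bases before to 50 after the start of transcription, 5' to 3' on the strand of the gene, from RefSeq on GRCm38.p6. In Hmgcs1 (chr13:119690101-119690400, plus strand) capitals mark CCAAT, the box bound by NF-Y, and TCACNCCAC, a form of the sterol response element bound by SREBP, without overlap between them. In Msmo1 (chr8:64733529-64733828, minus strand) they mark CCAAT. In Tef (chr15:81811164-81811463, plus strand) and Cry1 (chr10:85185005-85185304, minus strand) they mark CACGTG, the E-box of CLOCK and BMAL1. A motif read on the opposite strand is in capitals too, so that CCAAT also appears as its reverse complement.
Hmgcs1: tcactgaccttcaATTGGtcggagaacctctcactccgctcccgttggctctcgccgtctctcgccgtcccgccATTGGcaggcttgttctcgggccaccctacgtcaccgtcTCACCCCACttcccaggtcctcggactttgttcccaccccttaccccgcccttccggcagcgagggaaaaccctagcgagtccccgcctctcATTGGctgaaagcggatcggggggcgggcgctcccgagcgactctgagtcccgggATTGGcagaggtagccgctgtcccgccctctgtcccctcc
Msmo1 (Sc4mol): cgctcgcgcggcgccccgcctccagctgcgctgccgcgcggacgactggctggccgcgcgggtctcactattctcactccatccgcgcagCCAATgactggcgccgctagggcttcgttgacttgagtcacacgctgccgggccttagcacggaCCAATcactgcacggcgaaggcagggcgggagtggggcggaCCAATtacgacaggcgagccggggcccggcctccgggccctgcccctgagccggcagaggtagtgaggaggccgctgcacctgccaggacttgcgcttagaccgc
Tef: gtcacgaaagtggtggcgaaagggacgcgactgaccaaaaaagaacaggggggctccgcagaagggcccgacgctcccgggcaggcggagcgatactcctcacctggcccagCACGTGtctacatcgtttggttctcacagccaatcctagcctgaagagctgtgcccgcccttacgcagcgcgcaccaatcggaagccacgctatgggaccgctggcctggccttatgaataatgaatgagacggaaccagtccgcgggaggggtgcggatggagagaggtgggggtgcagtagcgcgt
Cry1: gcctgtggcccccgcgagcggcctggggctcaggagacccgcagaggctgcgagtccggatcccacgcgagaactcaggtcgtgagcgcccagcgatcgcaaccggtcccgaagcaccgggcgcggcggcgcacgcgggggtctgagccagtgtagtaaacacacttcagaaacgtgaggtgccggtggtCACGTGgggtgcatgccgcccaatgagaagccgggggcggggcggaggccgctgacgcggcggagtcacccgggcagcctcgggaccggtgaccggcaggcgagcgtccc

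Of the 23 cholesterol genes, 15 had promoters in the RefSeq table, and all 15 held CCAAT in at least 1 of them. Counted by promoter this was 15 of 17 (88.2%), against 37.4% of all 32851 promoters. In the clock list it was 14 of 23 (60.9%). TCACNCCAC was in 1 of the 17, in Hmgcs1, 137 bases before the start, and in 1.24% of all promoters. Of the 19 clock genes, 15 had promoters, of which 5 of 23 (21.7%) held CACGTG, against 7.15% of all, in Bhlhe41, Cry1, Per1 and Tef. CACGTG was as frequent in the cholesterol promoters (4 of 17, 23.5%). The D-box TTANGTAA was in 1 of the 23 clock promoters, that of Per3, and in 2.32% of all. Both strands were searched, and a match is a description of the letters only.

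The genes with the lowest p over litters were mostly single genes that litter 5 had at a low level, and none of the 10 passed the F test (limma adjusted p from 0.20 to 0.22). Wdr17, a WD-repeat gene, was at 8.76 and 8.67 in litter 5 and from 9.19 to 9.39 in the other 10 brains, 1.49-fold lower. Ift122, a part of the transport machinery of cilia, was at 8.79 and 8.82 against 9.22 to 9.54, 1.47-fold lower. Exoc4, of the exocyst that tethers secretory vesicles, was at 9.81 and 9.77 against 10.17 to 10.53, 1.48-fold lower. Tfb1m, which methylates mitochondrial ribosomal RNA, was 1.55-fold lower, and so was Mina, an oxygenase of ribosomal protein. In each of these the brains of litter 5 lay below all others, and all passed the contrast of litter 5 with the rest (limma adjusted p = 0.017). Most probesets moved the same way, with 32 of 33 probesets of Wdr17, 30 of 32 of Ift122 and 20 of 20 of Exoc4 lower in litter 5. Hmgcll1, Hrasls and Rlbp1 were also among the 10 with litter 5 lowest, and BC002195 is given with litter 4.

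The largest differences among the genes that passed in litter 5, with at least 3 probesets and a level above the median intron control, were also falls, and the genes named here were chosen after their values were seen. Slc16a7, which encodes the monocarboxylate transporter MCT2 of neurons, was at 8.85 and 8.80 against 9.24 to 9.96, 1.67-fold lower (SE 0.11, limma adjusted p = 0.027). Fbxl21, an F-box protein that acts on cryptochromes, was at 7.77 and 7.74 against 8.18 to 8.76, 1.61-fold lower. Of the 20 largest, 19 were lower and 1 higher, Clec3a, at 8.01 and 7.92 against 6.90 to 7.55.

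Markers of several cell types passed in litter 5, each in a few of their members. In the lists that follow, the examples beyond the members of lowest p were chosen after their values were seen. Of 17 oligodendrocyte lineage genes 3 rose (background 2.75%) and 0 fell. Sox10, the transcription factor of the lineage, was at 9.85 and 9.98 against 9.36 to 9.77, 1.33-fold higher (SE 0.061, adjusted p = 0.027 by limma). Olig2, which specifies the lineage, was at 9.89 and 10.14 in litter 5, at 9.79 and 9.73 in litter 4 and from 9.54 to 9.68 in the other 8 brains. Ugt8a, which makes the galactolipids of myelin, was the third. Mbp and Mog did not pass (limma adjusted p = 0.20 and 0.32), and the list median relative to all genes was 0.065. With dim probesets out, 6 of 11 members had a positive difference and 5 a negative one. Of 17 neuronal genes 2 fell (background 2.76%) and 0 rose, while the list median was 0.085, beside 0.072 over all genes, and both litter 5 brains were above all others in 3 genes and below them in 3. Among the genes that fell was Elavl4, an RNA-binding protein of neurons, at 10.68 and 10.74 against 10.79 to 11.06. Of 18 microglial and macrophage genes 2 fell (background 2.76%), among them Lyve1, of perivascular macrophages, at 8.53 and 8.57 against 8.78 to 9.06. The median of this list was 0.017, beside 0.072 over all genes, so that the list as a whole did not follow these 2. In whole brains, fewer cells of a type and less RNA per cell cannot be told apart.

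Single neuron classes gave few calls. Calb1, a calcium buffer of Purkinje and other neurons, was at 9.73 in both litter 5 brains against 9.94 to 10.16, 1.25-fold lower (limma adjusted p = 0.030). It was the 1 call among 14 cerebellar genes (background 2.76%), whose median was 0.059, beside 0.072 over all genes. Slc5a7, the choline transporter of cholinergic neurons, was at 7.73 and 7.84 against 8.01 to 8.38. Cartpt, a neuropeptide precursor, was higher, at 8.99 and 9.17 against 8.54 to 8.83. Of 14 interneuron genes 2 rose (background 2.75%), among them Dlx2 by 1.16-fold, and 1 fell (background 2.76%), Htr3a, at 8.24 and 8.23 against 8.32 to 8.70. No gene of the lists for cortex (15), striatum (14), olfactory bulb (9) or thalamus and midbrain (14) passed in litter 5.

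Single genes of the glucocorticoid and immediate early lists rose in litter 5. Mt2, a metallothionein induced by glucocorticoids and by zinc, was at 13.09 and 13 in litter 5 and from 12.33 to 12.78 in the other 10 brains, 1.40-fold higher (SE 0.080, limma adjusted p = 0.029). It was 1 of 2 of 17 glucocorticoid-response genes that rose (background 2.75%), with Sgk1, a kinase, at 9.76 and 9.81 against 9.52 to 9.74. All 17 had a positive difference, 13 without centring, and the median relative to all genes was 0.092. The difference was above the median of all genes in 14 of the 17. With dim probesets out, 13 were positive and 4 negative. Of 21 immediate early genes, which follow neuronal activity and growth factors, 2 rose, Egr2 and Egr3 (background 2.75%). A positive difference was found in 18 (13 without centring), and in 14 it was above the median of all genes. The list median relative to all genes was 0.077. With dim probesets out, 8 of 14 members had a positive difference and 6 a negative one, and that median was 0.024. Npas4, which is induced by neuronal activity, had a negative difference of -0.254 (adjusted p = 0.10). Lcn2, an acute-phase protein, rose 1.26-fold.

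In litter 4 the pattern was another one. Of 19 Hox genes both brains of litter 4 lay above all others in 9 (background 2.56%), 10 had an unadjusted p under 0.05 in its contrast and all 10 were higher (background 4.52%), and 7 had an unadjusted p under 0.05 over litters (background 13.8%). None passed after adjustment (limma adjusted p of 0.44 or more). Hoxb8, of the lower hindbrain and spinal cord, was at 7.43 and 7.53 in litter 1, 7.90 and 7.64 in litter 2, 8.51 and 8.54 in litter 3, 8.77 and 8.96 in litter 4, 7.96 and 8.73 in litter 5 and 7.48 and 7.76 in litter 6, wildtype first. Littermates were close in litters 1, 3 and 4 and apart in litter 5, and litter 4 lay above every other brain. Hoxc5 was also highest in litter 4, with 6.99 and 7.17 in litter 4, 6.70 and 6.77 in litter 3, 6.20 and 6.12 in litter 1 and 6.24 and 6.05 in litter 6. Hoxc4 was at 7.78 and 7.85 in litter 4 and from 7.18 to 7.63 in the others. Hoxb3, which reaches further forward in the hindbrain, was at 9.97 and 9.84 against 9.46 to 9.80. Litters 1 and 6 were the low end, with median deviations from the mean of the litters of -0.14 and -0.13. In litter 1 the differences were negative in 18 of the 19.

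The mean deviation of the Hox list from the 12 brains was lowest in the KIS-ko brain of litter 6, at -0.2332. Its wildtype littermate was low too, at -0.1152. In single genes the KIS-ko brain stood apart from its littermate. Hoxb5 was at 7.60 there and 9.29 in its littermate, and from 8.81 to 9.98 in the other 10. Hoxa5 was at 7.18 there and 8.42 in its littermate. Of the 19 genes it was the lowest brain in 8, against 5.8% of all genes, and the highest in 2, against 14.8%. Many Hox probesets were dim. With probesets under the 95th percentile of the intron controls left out, 8 genes remained, 5 of them with a positive difference in litter 4, and Hoxb8 turned to -0.0303. In these 8 genes litter 5 was then higher than litter 4, with 8 of 8 positive differences and a median of 0.27 against 0.056, so that which litter stood highest depended on the dim probesets. Choroid plexus, meningeal and cartilage lists gave 0 of 12, 1 of 16 and 0 of 14 genes with an unadjusted p under 0.05 over litters (background 13.8%).

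Interferon-response genes were lowest in litter 4. Of 20 measured, both litter 4 brains lay below all others in 8 (background 2.06%). In the contrast of litter 4, 9 had an unadjusted p under 0.05, all lower (background 3.97%). A negative difference was found in 19 under each of the 3 scalings, and none of the 20 passed after adjustment. Most members were dim, with the mean level of 1 of the 20 above the 95th percentile of the intron controls. With probesets under that level left out, 8 genes remained, 6 with a negative difference in litter 4 and 2 with a positive one. Their median relative to all genes was -0.24. Ifit1, an antiviral RNA-binding protein, was at 6.77 and 6.53 in litter 4, from 7.32 to 7.82 in litters 1 to 3, and at 8.09 and 8.15 in litter 5 and 8.01 and 7.74 in litter 6 (limma adjusted p = 0.38 in litter 4). It has 2 probesets. Irf7, the factor that amplifies the response, was at 6.81 and 6.96 in litter 4 and from 7.11 to 7.49 in the others. Gbp3, a guanylate-binding protein, was at 7.05 and 6.96 against 7.14 to 7.59. Litter 6 was the high end for Oasl2, at 8.72 and 8.57. In litter 5 the differences were positive in 17 of the 20, but in 13 without centring and 14 after another quantile normalization, and the median relative to all genes was 0.10. There 2 of the 20 rose (background 2.75%), Ifit1 and Gbp3 (adjusted p = 0.046 and 0.044 by limma), and 0 fell. Stat2 was at 8.44 and 8.34 against 8.55 to 8.92.

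**Figure D4:**
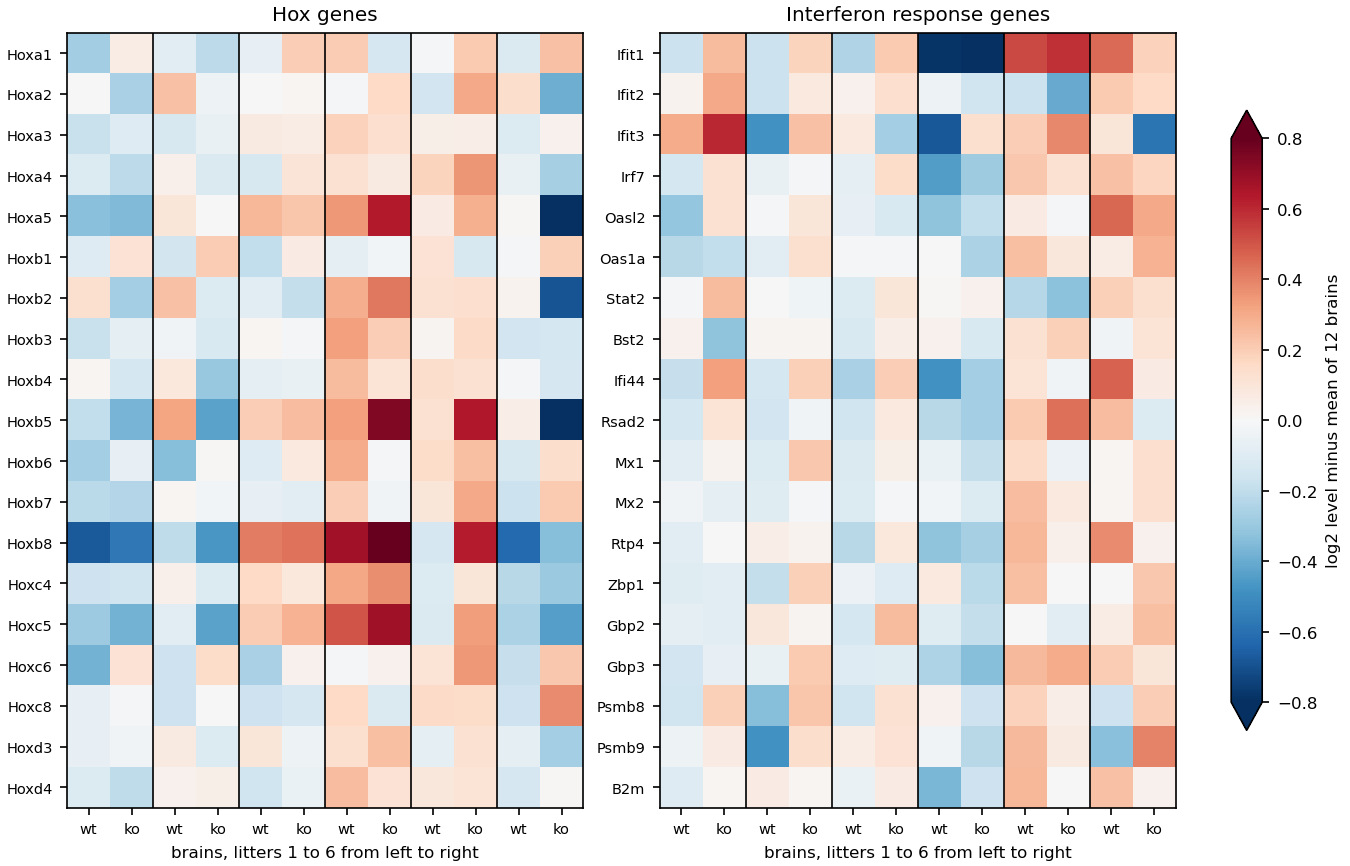
Each row is a Hox gene (left) or an interferon-response gene (right) and each column a brain, in litters 1 to 6 from left to right with wildtype before KIS-ko. Colour gives the log2 level minus the mean of the 12 brains, from -0.8 to 0.8. Litter 4 is red in most Hox genes and blue in most interferon genes, and the KIS-ko brain of litter 6 is blue in Hoxa5, Hoxb2 and Hoxb5.

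The 1 gene that passed in litter 4 was BC002195, of unstated function, at 5.17 in the wildtype and 5.50 in the KIS-ko brain against 5.73 to 6.29 elsewhere (SE of the difference 0.045, limma adjusted p = 0.0083). It rests on 2 probesets and its mean level of 5.90 lies under that of the median intron control, so that no fold is given, and it did not pass with a pseudocount of 1 or 64, without centring, or without either brain of litters 3, 4 or 5 or the wildtype brain of litter 2. Nmb, the neuropeptide neuromedin B, was at 7.60 and 7.64 in litter 4 against 7.93 to 8.26 in the other brains, but did not pass (adjusted p = 0.44 by limma). Mcm2, a helicase of replicating cells, was lowest in litter 4, at 8.65 and 8.56 against 8.69 to 9.10.

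Chac1, which degrades glutathione and is a target of the amino acid and unfolded protein response, was at 9.77 and 9.82 in litter 1 and from 8.93 to 9.44 in the other 10 brains, 1.52-fold higher, with an unadjusted p of 0.00011 and an adjusted p of 0.34 by limma. Of the 17 genes of that response, 5 had an unadjusted p under 0.05 and were higher there, against 2.87% of all genes. The same count was 6 of 19 proliferation genes and 9 of 46 replication-dependent histone genes. Gh, growth hormone of the anterior pituitary, had the widest range of litter means of all genes with an unadjusted p under 0.05. It was at 12.05 in the wildtype and 9.04 in the KIS-ko brain of litter 1 and from 7.50 to 8.11 in the others. Both littermates were above the rest, but far apart. Cga, the shared subunit of pituitary glycoprotein hormones, was at 9.67 in the wildtype brain of litter 1 and at 6.76 in its littermate, inside the range of 5.86 to 6.77 of the others. Of 13 pituitary genes this wildtype brain was the highest in 5, against 2.60% of all genes.

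Skeletal muscle genes gave an example of a difference that was not shared. Myl1, a myosin light chain of fast muscle, was at 9.68 in the wildtype brain of litter 3 and from 6.54 to 7.24 in the other 11, its littermate at 7.01. Acta1, skeletal actin, was at 10.05 there and from 8.68 to 9.05 elsewhere. This brain was the highest in 7 of 12 muscle genes, against 4.07% of all genes, and 0 of the 12 had an unadjusted p under 0.05 over litters (background 13.8%). Y-linked genes were at 5.22 to 6.39 in all brains, apart from Sry at 7.72 to 8.33 (all animals were female), and Uhmk1 was at 10.78 to 10.89 in wildtype and 8.18 to 8.76 in KIS-ko brains of every litter.

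**Figure D5:**
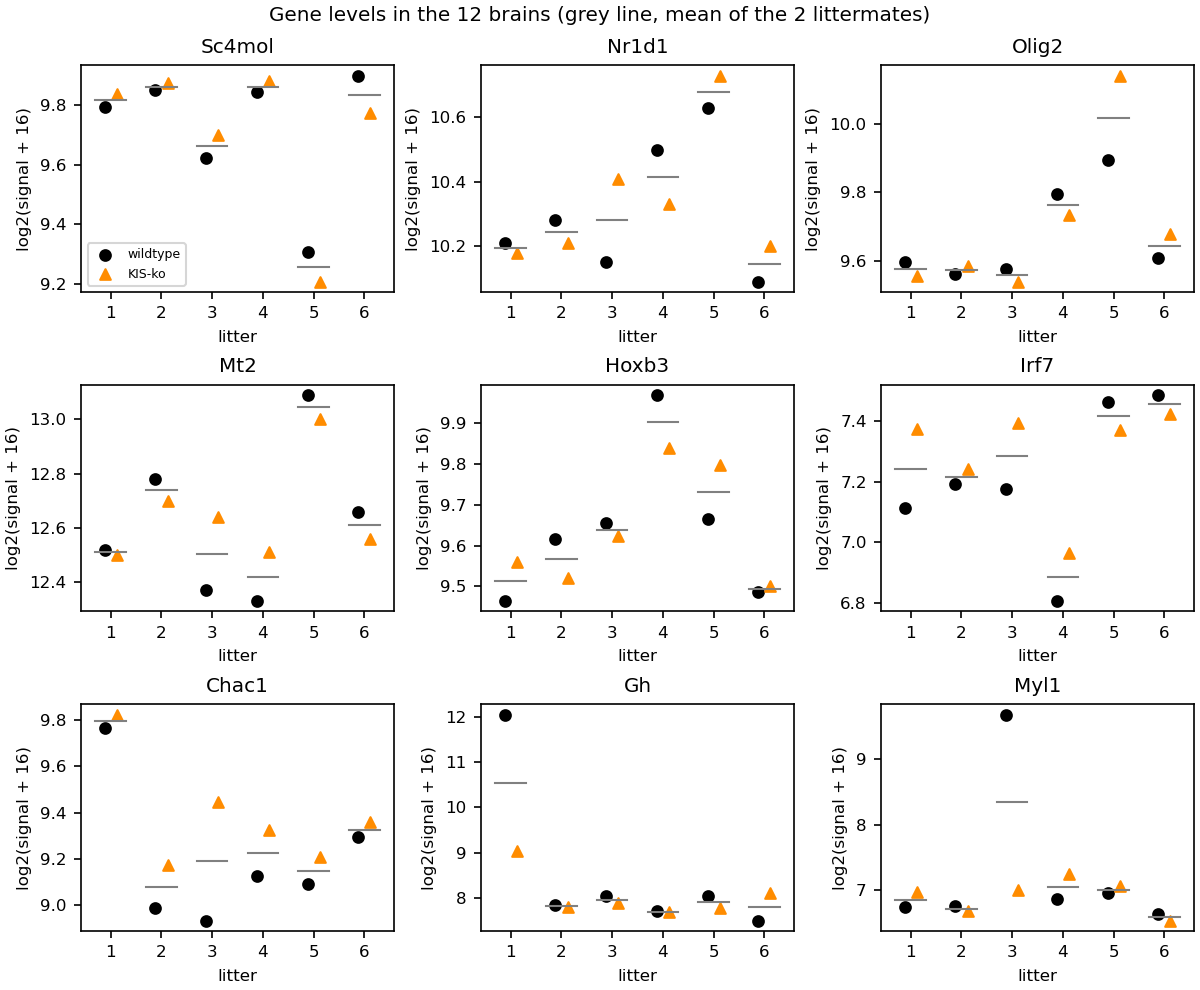
Levels of 9 genes in the 12 brains by litter, on the scale of log2(signal + 16), with circles for wildtype, triangles for KIS-ko and a grey line at the mean of the littermates. In Sc4mol, Nr1d1, Olig2 and Mt2 both litter 5 brains lie outside the others, in Hoxb3 and Irf7 both litter 4 brains and in Chac1 both litter 1 brains, whereas Myl1 is high in 1 brain of litter 3 only.

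Other lists are given by their members with an unadjusted p under 0.05 over litters, beside 13.8% of all genes. Pericyte and smooth muscle genes had 4 of 12. In litter 4 the list had a median difference of -0.14, and 4 of the 12 had an unadjusted p under 0.05 and were lower (background 3.97%). In litter 5 its median was 0.05, beside 0.072 over all genes, and the single call went the other way from that median: Anpep, an aminopeptidase of pericytes, fell, with 8.60 and 8.56 against 8.81 to 9.01 (limma adjusted p = 0.027). Ependymal and cilia genes had 3 of 11. Ccdc39, which sets the spacing of dynein arms in cilia, was the single call of this list in litter 5 (background 2.76%). It fell, with 7.63 and 7.56 against 7.77 to 8.09 (limma adjusted p = 0.029). The list median there was 0.0078, beside 0.072 over all genes. Lower counts were 0 of 19 imprinted genes, 2 of 19 erythroid, 1 of 17 endothelial, 2 of 16 astrocyte and radial glia, 6 of 82 ribosomal protein, 6 of 84 respiratory chain and 2 of 33 MHC genes. Others were 2 of 12 heat shock, 3 of 19 hypoxia, 3 of 18 fasting and ketone, 4 of 19 proliferation and 9 of 46 replication-dependent histone genes. Olfactory receptors, which lie near the background in brain, gave 119 of 947. The chromosomes were alike, with 12% to 17% of the genes of each at an unadjusted p under 0.05.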

How the data were processed

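The authors hybridized total RNA of 12 brains to Affymetrix Mouse Exon 1.0 ST arrays and summarized probes with PLIER in Expression Console after quantile normalization at the exon level. The deposited values are linear intensity per probeset. Which genome build the positions refer to is not given in the sources used here. Litter and genotype came from the labels, which put 1 wildtype and 1 KIS-ko brain in each litter, so that the litter pairs them.

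Of 229581 probesets, 221417 main probesets with a gene symbol were kept, of which 84.3% match 1 place. A gene's value was the mean of log2(intensity + 16), centred on the array's median. Litter and genotype were fitted with limma 3.58.1 in R 4.3.3 (moderated F over litters, then each litter against the mean of the other 5), with Benjamini-Hochberg adjustment over all genes at 0.05. The fit had 2.8 prior degrees of freedom. The script was tested on simulated data. The 5222 intron controls (median 114, 95th percentile 713) gave the background, and the number of arrays limits the precision. Promoters were RefSeq's on GRCm38.p6.

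Named genes were the 10 of lowest F p, those of widest range between litters, those of largest litter differences and up to 4 members of each list by lowest p. Gene lists, members and tests were chosen with earlier results of these data known. Alternatives covered pseudocount, filters, scaling, variance moderation, the replicate block and single brains or litters left out. A few genes of these lists are counted but not reported by name here or drawn.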

Additional observations from a re-analysis of the deposited data

Results flagged for a closer look

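In groups of 6 brains of 1 genotype, 30 of 188 values had 1 brain set apart, meaning that its gap to the nearest brain, as a share of the group's range, was above 0.625. Chance gives about 1 in 20 groups, and genes were named partly for such differences. In the wildtype brain of litter 5 the share was set apart for Wdr17 (0.725), Ift122 (0.7), Hmgcll1 (0.76), Exoc4 (0.629), Lcn2 (0.679), Ccdc39 (0.709), Gng13 (0.693), Snrpn (0.637), Ufsp2 (0.676) and Hmgcs1 (0.735). In the KIS-ko brain of litter 5 it was so for Wdr17 (0.768), Hmgcll1 (0.783), Hrasls (0.651), Cartpt (0.729), Sc4mol (0.733), Fbxl21 (0.8), Idi1 (0.741), Clec3a (0.673), Vps13a (0.657), Akr1e1 (0.696), Tef (0.704), Fdft1 (0.759) and Cyp51 (0.672). The wildtype brain of litter 4 was set apart in BC002195 (0.755), and its KIS-ko littermate in BC002195 (0.718), Nmb (0.626) and Ifit1 (0.746). In litter 1, Gh (0.882) was set apart in the wildtype and Gh (0.687) in the KIS-ko brain. In litter 2, Foxa2 (0.668) was set apart in the KIS-ko brain.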

How the results depend on the processing

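The call of genes over litters was 0 in the main setting and 0 without any single brain or litter, 128 without dim probesets and 487 with a variance trend. For probesets it was 8 without dim ones. The genes at an unadjusted p under 0.05 numbered 1356 to 2908 without a brain and 847 to 2855 without a litter, the lowest without litter 5. Litter 5 gave 442 genes with a pseudocount of 1, 1980 without dim probesets, 16 with the median over probesets and 2403 with a trend. Without a brain it gave 0 to 1257 and without another litter 0 to 1258. Litter 4 gave 0 with pseudocounts of 1 or 64, the relative standard deviation filter, dim probesets out, no centring and another quantile normalization, 4 with a trend, and 0 to 1 without a brain or litter. Litter 1 gave 1 with a pseudocount of 1 or a trend and 0 to 1 without a brain, and litter 3 0 to 4. The cause was not tested. The pseudocounts, the relative standard deviation filter, the median over probesets and the trend in the contrasts of single litters, and the counts of list members under each setting, were chosen after seeing the data.

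Cholesterol genes lower in litter 5 numbered 2 with the median over probesets, 0 to 11 without a brain and 0 to 12 without a litter. Clock genes higher numbered 4 with a pseudocount of 1, 1 without centring, 0 with the median, 14 with a trend, and 0 to 9 without a brain or litter. At an unadjusted p they numbered 8 without centring and 10 without dim probesets. The likeness of littermates was 0.332 in well-detected genes and 0.0077 (without litter 5) to 0.14 over all genes without a litter. Differences turned in Hoxb8 (-0.0303) and Pisd-ps1 (0.00251) without dim probesets, in Pisd-ps1 with the median (0.0972), in Kdm5d without centring (-0.00121) and in Uhmk1 without the KIS-ko brain of litter 5 (from -0.00715 to 0.376 over the single brains and litters left out). Without the replicate block of litters, genotype gave 1 gene in place of 2, and 1 without any litter.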
